A study of Mus musculus with 4 samples.

Results

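The genes described here are the vitamin D activation and receptor genes of sorted mouse hair follicle stem cells. They are Cyp27b1, Cyp24a1, Vdr, Rxra and Rxrb, 5 of the 24084 gene rows of the count table, matched by symbol. They were chosen with their CPM values (reads per gene scaled to a common library size) in the Foxp3-DTR and WT libraries known. Their levels and fold changes in that contrast are therefore given as a description. Where a call of the fit over all genes is mentioned for them, it is no independent test. The cells came from C57BL/6 mice, aged 7 to 10 weeks, whose back skin had been depilated 4 days earlier to set off hair growth. Diphtheria toxin was given to every animal, at 15 ng/g into the peritoneum. In the 2 WT libraries (replicates A and C) regulatory T cells were present. In the 2 Foxp3-DTR libraries (replicates C and D) the receptor for the toxin is made in Foxp3-expressing cells, so regulatory T cells were depleted. The contrast asks what changes in the stem cells once these T cells are gone. Whether a library came from 1 animal or from pooled animals is not given in the sources used here.

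Vitamin D becomes a hormone in stages. Cyp27b1, a mitochondrial cytochrome P450, makes the active form, calcitriol, and keratinocytes carry this enzyme themselves. Cyp24a1, a related mitochondrial P450, breaks calcitriol and its precursor down, and its transcription is a classical response to the hormone. Vdr is the nuclear receptor for calcitriol. It binds DNA as a dimer with a retinoid X receptor, encoded by Rxra, Rxrb or Rxrg. In skin, the receptor is required for hair to regrow after the first coat, and mice without Vdr lose their hair, whereas mice without Cyp27b1 keep theirs.

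Gene counts summed to between 13911765 and 15923154 per library. All 12 fixed hair follicle stem cell markers were detected in every library. Their CPM summed to 33309 to 34211 in WT libraries and to 27566 to 31906 in Foxp3-DTR libraries, without overlap. Foxp3 had 0 counts in every library, which does not check T cell depletion in sorted epithelial cells. Xist CPM were 861 (WT A), 2482 (WT C), 1.86 (Foxp3-DTR C) and 0 (Foxp3-DTR D). The Y-linked Ddx3y and Eif2s3y had 0 counts in WT and between 83.5 and 117 CPM in Foxp3-DTR. Sex, the DEP2 and DEP3 codes of the sample titles and the T cell state coincide with the groups and cannot be told apart in any comparison below.

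Cyp27b1 was lower in both Foxp3-DTR libraries. WT A held 527 counts or 37.1 CPM of it, and WT C held 416 counts or 25.6 CPM. Foxp3-DTR C held 57 counts or 3.78 CPM, and Foxp3-DTR D held 86 counts or 6.09 CPM. Both WT libraries thus lay above both Foxp3-DTR libraries, and the gap between the groups was wider than the gap within either. The WT mean was 31.3 ± 8.14 CPM and the Foxp3-DTR mean 4.94 ± 1.64 CPM (SD, n = 2 each), so the WT mean was 6.35 times the Foxp3-DTR mean. The log2 fold change from edgeR was -2.67 ± 0.37 (SE). Of the 12920 genes tested, 102 had a more negative fold change. Cyp27b1 was the 1 member of 4 tested that passed edgeR's adjusted threshold of 0.05 as lower, where 0.426% of all tested genes did. As the gene was chosen from this contrast, that count is not evidence about it. It also passed with DESeq2, with RLE factors, without the filter and when WT C or Foxp3-DTR D was left out, and did not pass with limma-voom, without WT A or without Foxp3-DTR C. Its log2 fold change lay between -3.04 and -2.36 over the 8 alternatives.

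**Figure D1:**
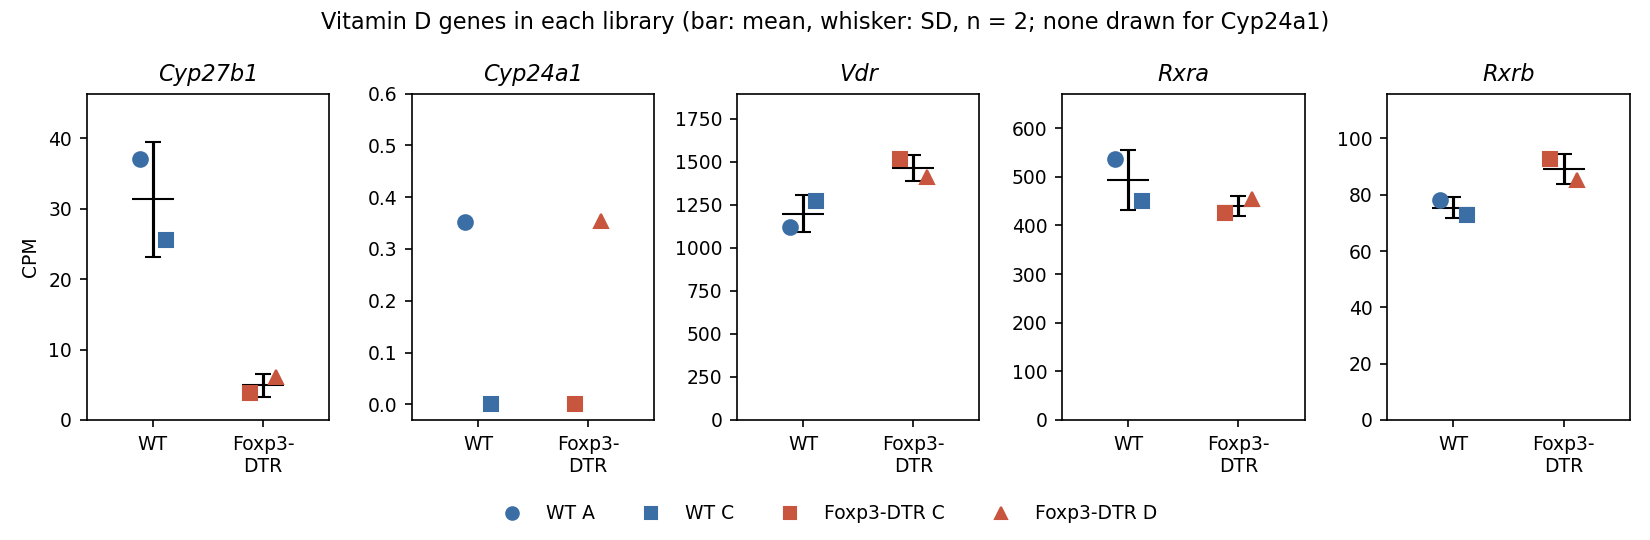
CPM of the 5 vitamin D genes in each library, 1 panel per gene with its own linear axis; symbols are libraries, bars are group means and whiskers the SD of 2 libraries. Cyp27b1 lies at 25.6 to 37.1 CPM in WT and at 3.78 to 6.09 CPM in Foxp3-DTR; Vdr, Rxra and Rxrb differ far less between the groups, and Cyp24a1 has no mean drawn because it had 0 counts in 2 of the libraries.

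Cyp27b1 lies on the plus strand of chromosome 10 (mm10, 127048250 to 127053006), and its exons overlap those of no other gene annotated by GENCODE. Since it is the member with the widest difference, the 250 bases before its RefSeq start are shown (GRCm38.p6, plus strand, chr10:127047996-127048245). Capitals mark ATTGG, the reverse complement of the CCAAT box, and TATATA, which resembles a TATA box:
Cyp27b1: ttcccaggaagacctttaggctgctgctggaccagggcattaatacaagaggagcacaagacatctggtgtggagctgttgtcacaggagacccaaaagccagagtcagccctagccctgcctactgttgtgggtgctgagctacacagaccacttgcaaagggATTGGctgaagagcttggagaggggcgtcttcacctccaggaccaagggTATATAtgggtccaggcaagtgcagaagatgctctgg
The TATATA match, which reads the same on both strands, spans bases 37 to 32 before the start, and the ATTGG match spans bases 86 to 82. Searched on both strands, TATATA was found in 5.25% and ATTGG in 33.8% of the 32851 windows of this length in the RefSeq promoter table. Neither the half-site AGGTCA, found in 14.0% of windows, nor the DR3 element that Vdr and its partner bind (0.222%) was present in these letters.

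The genes beside Cyp27b1 had their own values. Mettl1, a tRNA methyltransferase gene that ends 1884 bases before Cyp27b1, stood at 26.5 and 23.7 CPM in WT A and C and at 23.9 and 23.1 CPM in Foxp3-DTR C and D. Its log2 fold change was -0.096 ± 0.24, and it did not pass (edgeR adjusted p = 0.910). On the other side, the nearest gene of the count table matched by symbol was Cdk4, the kinase partner of D cyclins, 10527 bases away. The count table held 27 names in the form of dates, which cannot be matched by symbol, so a nearer gene may have been missed. Cdk4 stood at 438 and 297 CPM in WT A and C and at 202 and 253 CPM in Foxp3-DTR C and D, without overlap. Its log2 fold change of -0.69 ± 0.25 did not pass either (edgeR adjusted p = 0.259).

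Markers of other cells were read in the same libraries. Markers of suprabasal epidermis summed to 2907 to 11222 CPM in WT libraries and to 2265 to 8749 CPM in the others. They were highest in WT A and Foxp3-DTR D, which were also the higher library of each group for Cyp27b1. Across the groups the order differed. Foxp3-DTR D had 8749 CPM of these markers and 6.09 CPM of Cyp27b1, and WT C had 2907 and 25.6 CPM. Of the 9 suprabasal genes in the table, 1 passed, Calml3, as lower. Sebaceous markers summed to 439 to 2180 CPM in WT, where WT A was the higher, and 452 to 571 CPM in Foxp3-DTR. The T cell list reached at most 11.2 CPM and the list of macrophages, Langerhans and dendritic cells at most 8.52 CPM, both in WT A, with Cd4, Foxp3 and Itgax at 0. The stem cell marker sums given above did not overlap between the groups and were lower in Foxp3-DTR. Krt5 was the most abundant of these 12 markers, and 0 of the 12 passed in edgeR's test. Among the other cells, the sums of fibroblasts, endothelium and melanocytes did not overlap either, and none of their tested markers passed. A lack of overlap is common: 22.0% of all tested genes had it as higher in Foxp3-DTR and 23.7% as lower. Fibroblast markers summed to 40.0 to 53.4 CPM in WT and 27.9 to 31.8 CPM in Foxp3-DTR, with Lum, Dpt and Mfap5 at 0. Endothelial markers summed to 4.01 to 4.74 and 1.91 to 2.72 CPM, with Cdh5, Kdr and Emcn at 0. Melanocyte markers summed to 18.8 to 33.0 and 34.0 to 44.7 CPM. The part of these cells in the Cyp27b1 values was not tested, and in sorted bulk samples fewer cells that express a gene cannot be told apart from less RNA per cell.

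Cyp24a1 was barely detected. WT A and Foxp3-DTR D held 5 counts each, and WT C and Foxp3-DTR C held 0. The 2 groups thus had equal sums of 5 counts, each from a single library. These are 0.352 and 0.354 CPM where it was seen, and 0 counts allow up to 0.185 CPM in WT C and 0.199 CPM in Foxp3-DTR C (3 counts, counting error only). It did not reach the filter on low counts and so was not among the genes tested. The gene lies on the minus strand of chromosome 2 (170482708 to 170497145), and 83 bases, or 2.33% of its exon length, overlap exons of Pfdn4 on the plus strand. Pfdn4, a prefoldin subunit gene, stood between 18.2 and 28.2 CPM. The strand setting of the counter is not given in the sources used here, so the few reads of Cyp24a1 cannot be assigned to it with certainty.

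Vdr was abundant in every library. WT A and C held 1124 and 1274 CPM of it, Foxp3-DTR C 1518 CPM and Foxp3-DTR D 1412 CPM. Both Foxp3-DTR libraries lay above both WT libraries, by a margin about as wide as the gap within a group. The means were 1199 ± 106 and 1465 ± 74.8 CPM (SD, n = 2 each), and the log2 fold change was 0.29 ± 0.20 (SE). Vdr spans 97854425 to 97910630 on the minus strand of chromosome 15, with no exon overlap.

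Of its partners, Rxra had the higher level. Rxra stood at 537 and 450 CPM in WT A and C and at 425 and 454 CPM in Foxp3-DTR C and D. The groups overlapped, and the log2 fold change was -0.17 ± 0.19. Rxrb stood at 78.1 and 72.7 CPM in WT A and C and at 92.8 and 85.2 CPM in Foxp3-DTR C and D, without overlap, with a log2 fold change of 0.24 ± 0.17. Rxrg, the third retinoid X receptor gene, had 0 counts in all 4 libraries. Among the 4 tested members, 2 did not overlap as higher in Foxp3-DTR and 1 as lower. Over all tested genes these shares were 22.0% and 23.7%, so a lack of overlap between pairs of libraries is common. No member passed as higher, where 0.820% of all tested genes did. Vdr, Rxra and Rxrb passed in none of the 8 alternatives, DESeq2 and limma-voom included. Rxra lies on chromosome 2 (27676440 to 27762957) and Rxrb on chromosome 17 (34031812 to 34038399), both on the plus strand and free of exon overlap.

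Levels of different genes were compared as CPM per kb of exon, averaged over the 4 libraries. Vdr stood at 236 ± 30.3 CPM per kb, above 99.2% of the 12362 tested genes with an annotated length. Rxra stood at 85.4 ± 8.94 CPM per kb, above 96.7%, and Rxrb at 20.7 ± 2.20 CPM per kb, above 78.7% (SD over 4 libraries of both groups). Cyp27b1 stood at 7.05 ± 6.21 CPM per kb, above 47.1%, with 9.94 to 14.4 CPM per kb in WT and 1.47 to 2.37 CPM per kb in Foxp3-DTR. Cyp24a1 came last at no more than 0.0995 CPM per kb. No neighbours in this order overlapped over the 4 libraries.

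Ratios within a library set the receptor against its partners and against the activating enzyme. Per kb, Vdr was 10.1 to 12.3 times Rxrb in the 4 libraries. It was 2.02 and 2.74 times Rxra in WT A and C, and 3.45 and 3.01 times Rxra in Foxp3-DTR C and D. Rxra and Rxrb together came to 0.593 and 0.447 of Vdr in WT and to 0.376 and 0.419 in Foxp3-DTR. Against Cyp27b1, Vdr was 13.8 and 22.7 times higher in WT A and C and 183 and 106 times higher in Foxp3-DTR C and D. The size of these ratios depends on the gene length used, though their relative change between libraries does not. With the longest transcript as length, mean levels were 305 (Vdr), 95.1 (Rxra), 31.3 (Rxrb) and 7.43 (Cyp27b1) CPM per kb.

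Retinoid X receptors also pair with receptors for retinoic acid, thyroid hormone, fatty acids and oxysterols. Among Vdr, the 3 retinoid X receptor genes and 15 such partners, Vdr had the highest level per kb and its lowest library stood above every library of the next gene. Rxra and Rarg, the main retinoic acid receptor of epidermis (78.4 ± 11.2 CPM per kb), overlapped each other. They were followed by Nr1h2, an oxysterol receptor (22.8 ± 1.67), Thra, a thyroid hormone receptor (22.4 ± 3.65), and Rxrb, which overlapped as well. Rara came next at 13.0 ± 3.30 CPM per kb, and Nr1h4, Nr1i2 and Nr1i3 had 0 counts.

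**Figure D2:**
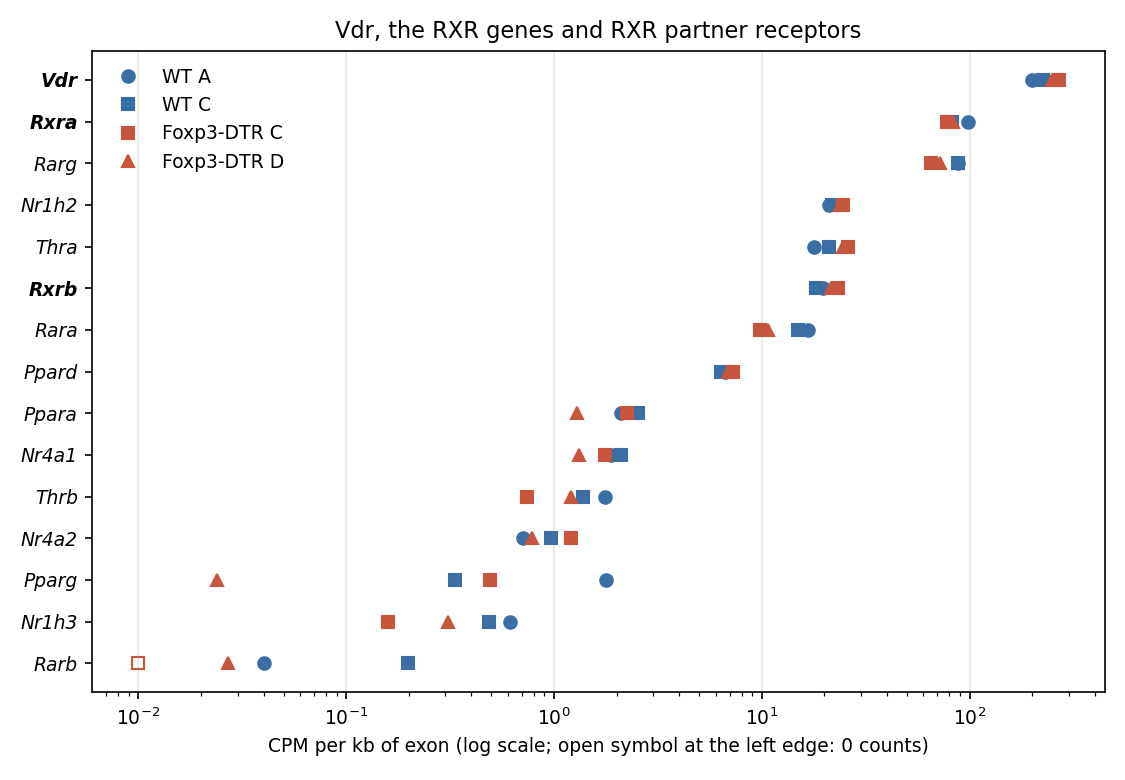
Level of Vdr, Rxra, Rxrb (bold) and the detected partner receptors in CPM per kb of exon, on a log axis; each symbol is 1 library. Vdr stands at 199 to 269 CPM per kb, above all libraries of Rxra and Rarg, and Rxrb lies among Nr1h2 and Thra.

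The other genes of the pathway were taken from 6 lists with 125 genes, of which 95 could be tested. In edgeR's test with Benjamini-Hochberg adjustment over all genes, 3 rose and 0 fell in Foxp3-DTR, where 0.820% and 0.426% of all tested genes did. At an unadjusted p under 0.05 there were 13 higher and 8 lower, against 873 and 1019 of the 12920 genes. DESeq2 called 11 higher and 4 lower, and limma-voom 1 and 0. Over all genes, DESeq2 called 489 higher and 513 lower, and limma-voom 70 and 23. These counts over all genes are also the background for each list below. The median log2 fold change of the 95 was 0.029, against -0.014 for all genes tested.

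Genes that make, carry and inactivate vitamin D formed the first list, with 15 of 21 tested. None passed in edgeR's test (1 higher and 1 lower at an unadjusted p under 0.05, 1 and 1 with DESeq2, 0 with limma-voom), and the median log2 fold change was -0.30. Cyp2r1, which makes the precursor that Cyp27b1 uses, stood between 0.493 and 1.06 CPM. Cyp27a1, a mitochondrial P450 that can make it too, stood between 30.5 and 55.7 CPM with overlapping groups. Fdxr and Fdx1, which pass electrons to the mitochondrial P450s, did not pass, with log2 fold changes of -0.28 ± 0.26 and 0.38 ± 0.28. Gc, the vitamin D binding protein of serum, and Lrp2, the receptor that takes it up in kidney, had 0 counts. Ugt1a6a, a glucuronosyltransferase, had the smallest p of the list, at 12.7 and 12.2 CPM in WT A and C and 0.928 and 2.34 CPM in Foxp3-DTR C and D, without overlap. Its log2 fold change of -2.92 ± 0.57 did not pass (edgeR adjusted p = 0.0695). Over the alternatives its adjusted p ran from 1.34e-04 with DESeq2 to 0.186 without Foxp3-DTR C. It passed without the filter, with DESeq2 and without Foxp3-DTR D (0.0178), and in no other alternative. It shares exons with the other genes of the Ugt1a locus, so its counts are uncertain. The highest level per kb on the list was that of Pdia3, a disulfide isomerase also described as a membrane binding protein for calcitriol (577 ± 50.9 CPM for WT, 489 ± 15.8 CPM for Foxp3-DTR).

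Cofactors that Vdr and its partners recruit were measured in full, with 22 of 22 genes tested and 0 past the threshold in edgeR's test (2 higher and 0 lower at an unadjusted p under 0.05, 2 and 0 with DESeq2, 0 with limma-voom). Their median log2 fold change was 0.030. Hr, the hairless corepressor that binds Vdr and whose loss also causes hair loss, stood at 549 and 723 CPM in WT A and C and at 1175 and 1066 CPM in Foxp3-DTR C and D. Both Foxp3-DTR libraries lay above WT. The log2 fold change of 0.82 ± 0.22 did not pass (edgeR adjusted p = 0.138), whereas DESeq2 called it with an adjusted p of 0.00269. In the other alternatives the adjusted p reached up to 0.789, without Foxp3-DTR C, and none called it. Ctnnb1, the beta-catenin that Vdr also binds, had the highest level per kb of the list (228 CPM per kb) and a log2 fold change of -0.22 ± 0.19. Among the partner receptors, 0 of 11 tested genes passed in edgeR's test, in DESeq2 or in limma-voom, and 0 higher and 1 lower had an unadjusted p under 0.05. That 1 was Rara, at 72.9 and 64.9 CPM in WT A and C and 42.6 and 47.0 CPM in Foxp3-DTR C and D (log2 fold change -0.62 ± 0.19, edgeR adjusted p = 0.184).

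Of 28 genes listed as responding to vitamin D, 20 were tested, 2 rose and 0 fell in edgeR's test (against 0.820% and 0.426% of all tested genes). Their median log2 fold change was 0.051. Unadjusted p under 0.05 gave 2 and 3, DESeq2 2 and 1, limma-voom 1 and 0. The calcium transport genes that define the response in gut and kidney, Trpv5, S100g and Calb1, had 0 counts. Trpv6, a calcium channel with nearby Vdr sites, stood at 7.11 and 6.83 CPM in WT A and C and at 1.86 and 3.54 CPM in Foxp3-DTR C and D. Its log2 fold change of -1.37 ± 0.55 did not pass (edgeR adjusted p = 0.324). The genes that rose are known for other controls as well.

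Nfkbia, the feedback inhibitor of NF-kappaB, stood at 91.1 and 114.9 CPM in WT A and C and at 363 and 368 CPM in Foxp3-DTR C and D. Its log2 fold change was 1.83 ± 0.20 (edgeR adjusted p = 0.0170, chromosome 12, 55489410 to 55492647). Txnip, which binds thioredoxin and limits glucose uptake, stood at 396 and 627 CPM in WT A and C and at 1560 and 1722 CPM in Foxp3-DTR C and D. Its log2 fold change was 1.68 ± 0.27 (edgeR adjusted p = 0.0486, chromosome 3, 96557957 to 96561883). Txnip lost its call without Foxp3-DTR C (adjusted p = 0.0921), without Foxp3-DTR D (0.0508) and with limma-voom (0.0503), and Nfkbia kept its call in all 8 alternatives.

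The list of reported inducers and repressors of Cyp27b1 had 15 of 20 genes tested, 1 higher and 0 lower in edgeR's test (against 0.820% and 0.426% of all tested genes), and a median log2 fold change of 0.38. Unadjusted p under 0.05 gave 6 and 1, DESeq2 5 and 1, limma-voom 0. Over all genes, unadjusted p gave 873 and 1019 of 12920, DESeq2 489 and 513, and limma-voom 70 and 23. Some receptors known from the kidney were near or at 0: Pth1r, the parathyroid hormone receptor, reached at most 0.283 CPM, Kl, the klotho coreceptor, at most 0.0615 CPM, and Calcr had 0 counts. Ifngr2, a chain of the interferon gamma receptor, rose from 26.0 and 24.1 CPM in WT A and C to 93.0 and 63.6 CPM in Foxp3-DTR C and D. Its log2 fold change was 1.64 ± 0.25 (edgeR adjusted p = 0.0427, chromosome 16, 91547072 to 91565623). The call was lost without Foxp3-DTR C (adjusted p = 0.153), without WT C (0.0536) and with limma-voom (0.0599). The list's genes with the highest level per kb were Tnfrsf1a, a TNF receptor (log2 fold change 0.61 ± 0.20, edgeR adjusted p = 0.209), and Fgfr1, a fibroblast growth factor receptor (0.13 ± 0.37, edgeR adjusted p = 0.926).

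In the retinoid pathway, whose receptors share the retinoid X partner with Vdr, 0 of 12 tested genes of 18 passed in edgeR's test. At an unadjusted p under 0.05 there were 2 higher and 2 lower, DESeq2 called 1 and 1, and limma-voom 0. The smallest p was that of Lrat, which stores retinol as esters, at 15.5 and 14.0 CPM in WT A and C and 1.53 and 3.05 CPM in Foxp3-DTR C and D, without overlap. Its log2 fold change of -2.69 ± 0.49 did not pass (edgeR adjusted p = 0.0577). Its adjusted p ran from 5.42e-05 with DESeq2 to 0.172 without Foxp3-DTR C, and it passed in the same 3 alternatives as Ugt1a6a (0.0201 without Foxp3-DTR D). Dhrs3, a retinal reductase, and Crabp1, a retinoic acid binding protein, had the highest levels per kb, with log2 fold changes of 0.073 ± 0.18 and -1.03 ± 0.37 that did not pass.

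**Figure D3:**
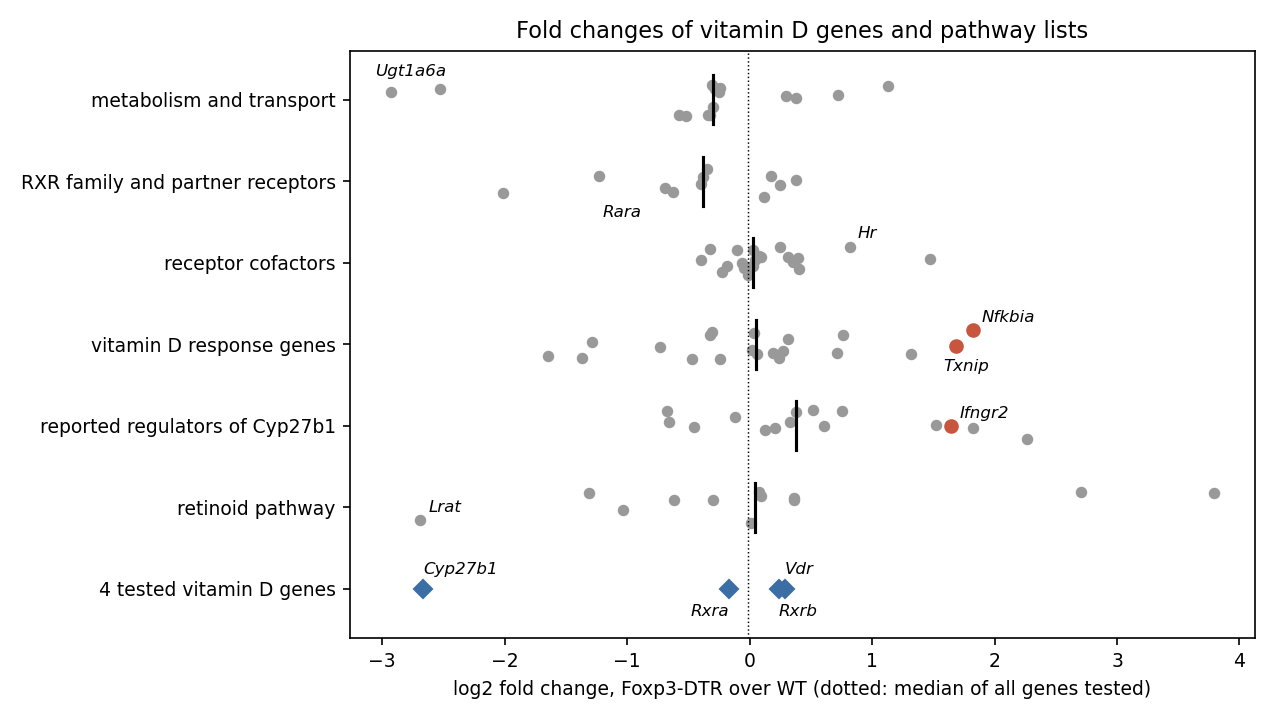
Log2 fold change, Foxp3-DTR over WT, of the tested genes of the 6 pathway lists (dots, red where the edgeR adjusted p is below 0.05; black bars are list medians) and of the 4 tested vitamin D genes (blue diamonds, shown as a description). Nfkbia, Txnip and Ifngr2 are the 3 genes past the threshold, and Cyp27b1 at -2.67 lies apart from Vdr, Rxra and Rxrb.

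The genes whose pattern over the 4 libraries was closest to Cyp27b1 were found by the distance between centred log2(CPM + 0.5) values. The candidates were 10732 tested genes with a mean log2 CPM of at least 2. Names in the form of dates and genes named Gm, Rik, LOC, BC or by accession were left out. As the groups differ in Cyp27b1, closeness largely repeats the group difference, and no test is given. The closest was Mns1, a gene of sperm flagella and cilia, at a distance of 0.17. It stood at 18.4 and 12.7 CPM in WT A and C and 1.39 and 2.48 CPM in Foxp3-DTR C and D. Next came Prr5, a component of the mTORC2 kinase complex (0.23), Clspn, a replication checkpoint adaptor (0.24), Cit, a kinase of the cleavage furrow (0.27), Kif11, a spindle motor (0.28), and Kif20a, a kinesin of the central spindle (0.29). All 6 were highest in WT A and lowest in Foxp3-DTR C, as Cyp27b1 was. For Vdr, whose values varied little, the closest genes were Uckl1 (0.031), Kdm6b (0.036) and Ppp3r1 (0.037), each likewise lowest in WT A and highest in Foxp3-DTR C.

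**Figure D4:**
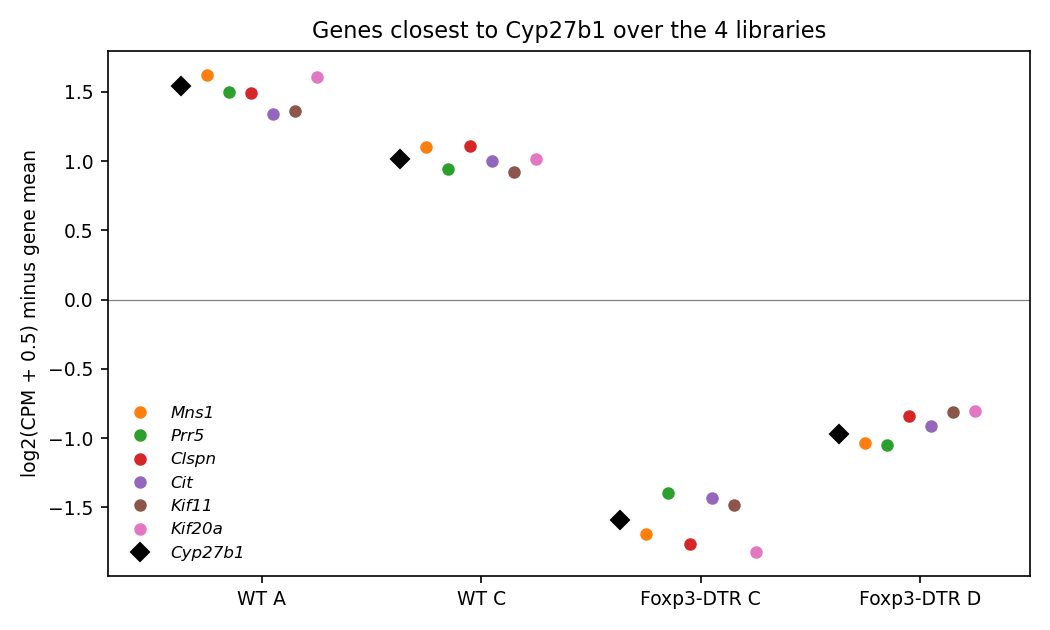
Log2(CPM + 0.5) minus each gene's mean over the 4 libraries, for Cyp27b1 (black diamonds) and the 6 closest genes (dots), 1 column of symbols per library. The WT libraries lie above 0 and the Foxp3-DTR libraries below 0 for all 7 genes, with Foxp3-DTR C lowest.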

How the data were processed

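RNA from sorted hair follicle stem cells was profiled in 4 libraries, 2 WT and 2 Foxp3-DTR. The deposited values are counts: raw whole-number reads per gene symbol, made by the authors. The submitters' processing notes name HTSeq 0.6.1 as well as TopHat2 2.0.12 and Bowtie2 2.1.0.0, and build mm10. Per the labels' protocols, the kit was stranded and poly(A)-based. The 5 counter rows that name no gene held 62.0% to 70.1% of each column and were left out. The row for alignments that were not unique alone held 61.3% (WT A), 51.8% (WT C), 53.4% (Foxp3-DTR C) and 58.3% (Foxp3-DTR D).

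Foxp3-DTR was compared with WT with edgeR 4.0.16 in R 4.3.3 (TMM, filterByExpr, robust glmQLFit, glmQLFTest; no covariate), adjusted over 12920 genes by Benjamini-Hochberg. CPM use TMM-scaled library sizes. SE follow from the fold change and F statistic. Alternatives were RLE factors, DESeq2 1.42.0, limma-voom (limma 3.58.1), no filter, leaving out each library, and another gene length. The procedure was also run on counts simulated with its own fitted spread. The outcome is not given here, so the simulation is no support for the results. Nothing in the sources ties the libraries to separate animals. A p-value here therefore reflects library-to-library spread alone, which may be technical.

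Coordinates and exon lengths (union of exons) are from GENCODE M21 of GRCm38, the assembly that mm10 names. Promoter sequence is from RefSeq (GRCm38.p6), which held 4 of the 5 members. Members and lists were chosen with earlier results of these data known. The text names all members, Hr, genes past the threshold on each list or else its smallest p, the 2 genes highest per kb on each list, neighbours of Cyp27b1, and the closest patterns; 1 of these is not reported here. Other genes were chosen after their values were seen.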

Additional observations from a re-analysis of the deposited data

How the results depend on the processing

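The log2 fold changes of Cyp27b1, Vdr, Rxra and Rxrb kept their sign in all 8 alternatives and moved by less than the spread between replicates. For the fits without 1 library this is no check. With 2 libraries per group, a group mean can hardly move beyond that spread. The sign could hardly turn either for Cyp27b1, Vdr and Rxrb, whose groups did not overlap. Leaving out 1 library gave -3.04 to -2.36 for Cyp27b1, 0.21 to 0.39 for Vdr, -0.29 to -0.020 for Rxra and 0.18 to 0.31 for Rxrb. Over all genes, 106 rose and 55 fell. The counts were 277 and 252 without the filter, 489 and 513 with DESeq2 and 70 and 23 with limma-voom. With 1 library left out they ran from 66 to 203 and from 14 to 220. Of the pathway genes, 3 rose and 0 fell. No filter gave 3 lower, DESeq2 11 higher and 4 lower and limma-voom 1 higher, and leaving out 1 library gave 1 to 6 higher and 0 to 3 lower. The fit without 1 library assumes that the lone library of a group varies like the other group. With the longest transcript as length, Vdr, Rxra and Rxrb stood at 305, 95.1 and 31.3 CPM per kb, and Cyp27b1 at 7.43, in the same order. Cyp24a1, with 10 counts in all, was left out by the filter and was not called without it. No paired analysis was possible because the groups share only 1 replicate letter.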

Other observations

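Other genes of these pathways had wide differences between the groups without passing edgeR's adjusted threshold, and were chosen after their values were seen. Cyp26b1, the P450 that degrades retinoic acid, stood at 7.04 and 20.5 CPM in WT A and C and at 78.0 and 101.9 CPM in Foxp3-DTR C and D (log2 fold change 2.70 ± 0.53, edgeR adjusted p = 0.0865). It passed with DESeq2, without WT A and without WT C, and did not pass with RLE factors, without the filter, with limma-voom or without either Foxp3-DTR library. Stra6, the retinol transporter, had 3 and 2 counts in WT A and C and 53 and 18 counts in Foxp3-DTR C and D (edgeR adjusted p = 0.152).

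Igfbp3, a binding protein for insulin-like growth factors, stood at 118 and 98.7 CPM in WT A and C and at 23.7 and 45.5 CPM in Foxp3-DTR C and D. Its log2 fold change was -1.65 ± 0.33 (edgeR adjusted p = 0.0761). It passed with DESeq2, without the filter and without Foxp3-DTR D, and did not pass with RLE factors, with limma-voom or without any of the other 3 libraries. Tlr2, a receptor for bacterial lipoproteins, stood at 3.31 and 8.67 CPM in WT A and C and at 43.5 and 14.2 CPM in Foxp3-DTR C and D (edgeR adjusted p = 0.219). DESeq2 called Tlr2 higher (adjusted p = 0.00666), and limma-voom did not.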
